A study of Mus musculus with 40 samples.

Results

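The cytosolic ribosomal protein genes encode the proteins of the large (Rpl) and small (Rps) subunits of the ribosome outside mitochondria. They were taken as every symbol that starts with Rpl or Rps and a digit, together with Rpsa, Rplp0, Rplp1 and Rplp2. Symbols named as pseudogenes (-ps), the S6 kinase genes, Rps19bp1 and the paralogs Rpl3l, Rpl7l1, Rpl10l, Rpl22l1, Rpl39l and Rps27l were left out. Of 26792 symbols in the count table, 84 met this rule, 49 of the large and 35 of the small subunit, and all 84 had enough counts to be tested in each comparison. Of the 84, 7 carry names of copies (Rpl6l, Rpl36al, Rpl37rt, Rps27rt, Rps3a2, Rps3a3 and Rps4l). Of these, the GENCODE annotation lists Rpl6l, Rpl37rt, Rps3a2, Rps3a3 and Rps4l as processed pseudogenes, which the rule by name did not remove. It lists Rpl36al and Rps27rt as protein coding.

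Ribosomal proteins are made in matched amounts and assembled with ribosomal RNA in the nucleolus. Most of their messages begin with a terminal oligopyrimidine tract, which places their translation under control of the kinase mTOR, so that such messages move between polysomes and a free pool. Rpl10a, which forms the mobile L1 stalk where spent transfer RNA leaves the ribosome, is the subunit that carries the tag in these mice.

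The hypothalami came from mice with the Aldh1l1 eGFP-L10a transgene, which was carried by every group, treated and control alike. In it, elements of Aldh1l1, an astrocyte gene, drive L10a fused to green fluorescent protein, and translating ribosome affinity purification (TRAP) isolates ribosomes that carry the tag, with their messages. Under each sample number the labels list a pull-down library (immunoprecipitate, IP) and a supernatant library (SN). Diets were chow or high-fat (HFD), given for 4 weeks, and the mice had a sham operation or an orchiectomy, removal of the testes, which the labels write as GDX or ORX. The groups were Sham-Chow (7 samples), Sham-HFD (6) and GDX-HFD (7), 40 libraries in all. An orchiectomised group fed chow was not analysed here, the age of the mice is not given in the sources used here, and the labels do not say whether each number is a separate animal, so that p-values reflect the spread among these samples alone, which may be technical.

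Library totals were 7714834 to 20792175 counts for pull-downs, and 8739276 to 12931869 for supernatants. Between the fractions, 8 of 8 astrocyte markers were higher in the pull-down and 8 of 8 neuron, 5 of 5 oligodendrocyte and 5 of 5 microglia markers were lower, while 5 of 5 endothelial markers were higher. Mitochondrially encoded messages took 0.643% to 1.63% of pull-down counts but 19.2% to 27.8% of supernatant counts. Gm42418, an RNA gene that overlaps a ribosomal RNA repeat, exceeded 10% of the counts in 4 pull-downs (Sham-Chow 8, Sham-HFD 1, GDX-HFD 11 and GDX-HFD 22).

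Some libraries stood apart in the ribosomal protein genes themselves. The Sham-HFD 1 pull-down was far from the rest of its group, by the ratio of a gap to the range, in 22 of the 84 genes (26.2%, against 12.3% of all genes tested), and was the lowest in all 22. The GDX-HFD 2 supernatant was far from its group in 18 genes (21.4%, against 11.4% of all genes), the highest in 15 and the lowest in 3. The GDX-HFD 10 pull-down was far from its group in 7 genes (8.33%, against 2.22%), and Rpl10a was among the 6 in which it was the highest. Each was left out in turn, an alternative added after seeing the data, and values that moved are given beside the results.

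Promoters are shown for the 6 lowest genes in the order between the fractions. Of the 6 highest, Rpl10a, Rpl22 and Rpl7a are shown, and Rpl10, Rpl7 and Rpl6l are not. The promoters are given because some of them share a stretch of letters. Rpl10a, Rpl7a (higher in the pull-down) and Rpl26, Rps6, Rps19 and Rpl12 (among the 6 lowest) hold it, while Rpl22 (higher) and Rpl36a and Rps24 (among the 6 lowest) do not. RefSeq promoter windows of 300 bases (GRCm38.p6, 250 bases before the start and 50 from the start on) matched 60 of the 84 genes, 8 of them with more than 1 listed start. The 100-base stretches below run from 70 bases before the start to 30 bases from the start on, 5′ to 3′ on the strand of the gene, and capitals mark each match to TCTCGCGA or its reverse complement. The 300-base window of the first listed start of Rpl10a, which is not shown, holds no match. Neither does that of the third listed start of Rps19.
Rpl10a, chr17:28328495-28328594, plus strand, the second listed start: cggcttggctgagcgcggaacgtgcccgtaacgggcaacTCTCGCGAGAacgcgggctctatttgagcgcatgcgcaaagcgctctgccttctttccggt
Rpl26, chr11:68901496-68901595, plus strand: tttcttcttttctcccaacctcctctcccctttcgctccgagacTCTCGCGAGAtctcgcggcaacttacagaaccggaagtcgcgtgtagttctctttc
Rps6, chr4:86857338-86857437, minus strand: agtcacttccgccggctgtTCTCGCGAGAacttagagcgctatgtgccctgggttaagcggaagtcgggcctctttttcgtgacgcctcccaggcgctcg
Rps19, chr7:24884522-24884621, plus strand, the first listed start: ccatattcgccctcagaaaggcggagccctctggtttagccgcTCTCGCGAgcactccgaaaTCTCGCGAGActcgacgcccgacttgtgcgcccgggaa
Rpl12, chr2:32961642-32961741, plus strand: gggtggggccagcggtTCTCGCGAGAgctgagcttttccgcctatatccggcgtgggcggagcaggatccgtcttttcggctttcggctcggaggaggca
Rpl22, chr4:152325656-152325755, plus strand, the first listed start: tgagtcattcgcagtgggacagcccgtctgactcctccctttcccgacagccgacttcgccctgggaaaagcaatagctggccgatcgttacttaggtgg
Rpl7a, chr2:26910737-26910836, plus strand: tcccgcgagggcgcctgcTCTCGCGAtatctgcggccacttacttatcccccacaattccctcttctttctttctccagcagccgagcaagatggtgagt
Rpl36a, chrX:134585584-134585683, plus strand: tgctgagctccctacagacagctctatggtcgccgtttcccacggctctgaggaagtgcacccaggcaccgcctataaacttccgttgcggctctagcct
Rps24, chr14:24490608-24490707, plus strand, the first listed start: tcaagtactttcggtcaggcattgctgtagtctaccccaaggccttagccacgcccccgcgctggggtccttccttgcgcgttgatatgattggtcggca
Rps24, chr14:24490683-24490782, plus strand, the second listed start: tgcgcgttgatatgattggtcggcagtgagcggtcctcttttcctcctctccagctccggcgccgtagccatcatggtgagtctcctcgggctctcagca

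TCTCGCGA was found on either strand, at any listed start, in 11 of the 60 genes (18.3%) and in 306 of the 27025 genes of the promoter table (1.13%). The 11 were Rpl10a, Rpl12, Rpl26, Rpl27a, Rpl35, Rpl7a, Rps15a, Rps19, Rps28, Rps3a1 and Rps6. They did not share a direction between the fractions: 9 were lower and 2 were higher in the pull-down (median log2 fold change -0.76), against 42 lower and 2 higher and a median of -0.60 in the 49 genes without it. The motif was put in capitals after the shares of 10 motifs had been seen, all searched on both strands. The other 9 were CCGGAAG, a core for ETS factors (24 of the 60 genes and 9.93% of all genes), ACTTCCGG, which holds the reverse complement of the former (18.3% and 4.31%), CTTTCC (51.7% and 29.3%), CTCTTTCC, which holds the former (16.7% and 3.57%), CTTTTCC (16.7% and 9.30%), GGGCGG (60.0% and 38.2%), CACGTG (10.0% and 8.09%), AAGATGGC (8.33% and 3.19%) and TATAAA (10.0% and 15.7%). A match describes these letters and not the binding of a factor.

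Ribosomal protein messages took a smaller share of the pull-down than of the supernatant, and the libraries of the fractions did not overlap. The 84 genes took 1.71% to 3.11% of counts across 20 pull-downs (median 2.49%) and 3.22% to 4.84% in the 20 supernatants (median 4.04%). In the pull-downs the group medians were 2.68% for Sham-Chow, 2.59% for Sham-HFD and 2.32% for GDX-HFD, with ranges that overlapped. In the supernatants they were 4.01%, 4.37% and 3.75%. With mitochondrially encoded genes and Gm42418 left out of the denominator, the pull-downs had 2.12% to 3.20% and the supernatants 4.64% to 6.18%. The fractions differ both in cell types and in whether messages were bound to tagged ribosomes, and these cannot be told apart here. Nor can fewer cells of a type and less RNA per cell be told apart in bulk libraries. The split between the subunits was close: large subunit genes took 55.7% to 58.5% of ribosomal protein counts in pull-downs against 52.4% to 56.4% in supernatants.

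**Figure D1:**
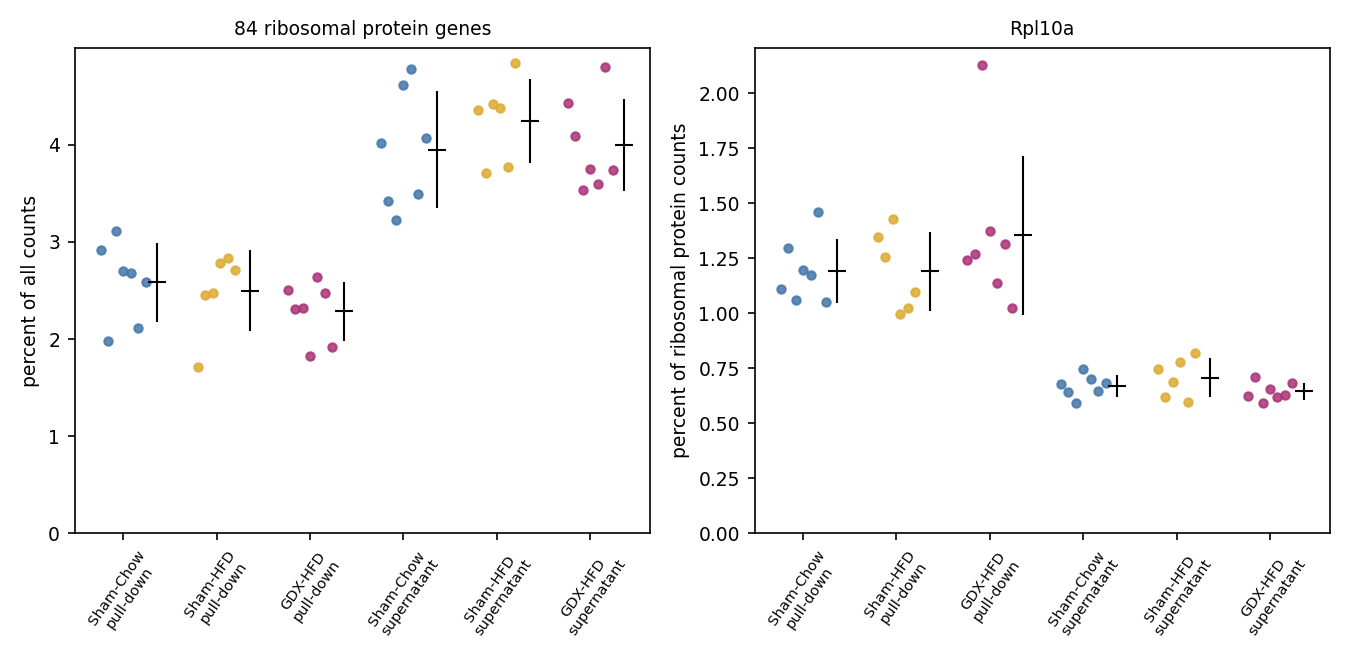
Left, the share of all counts in the 84 ribosomal protein genes, and right, the share of those counts in Rpl10a, in percent, for each library (points) by group and fraction, with the mean and SD beside them. The 20 pull-downs lie below the 20 supernatants on the left (at most 3.11% against at least 3.22%) and above them on the right (at least 0.996% against at most 0.819%).

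Gene by gene, 71 of the 84 were lower in the pull-down, 5 were higher and 8 did not pass, with edgeR's quasi-likelihood test at a Benjamini-Hochberg adjusted p under 0.05 over 15629 genes. Most genes differ between the fractions, so the background is high: 86.8% of all genes tested passed, 43.7% lower and 43.1% higher. The median log2 fold change (pull-down minus supernatant) was -0.60 over the 84 genes and -0.01 over all genes tested, and 20 of the 84 were lower by at least 2-fold, a share close to the 26.0% of all genes tested that were. In 34 genes every pull-down lay below every supernatant (40.5% of the 84, 18.9% of all genes), and in 1 gene every pull-down lay above (1.19% of the 84, 18.3% of all genes). Over the 14 alternatives 77 to 82 of the 84 were below 0, where 50.3% of all genes were in the main fit. The median of the 84 minus that of all genes was -0.64 to -0.36 over them. The median of the 84 itself ranged from -0.54 to -0.97. Its lowest value came with the total of counts without mitochondrial genes and Gm42418, which moved the median of all genes by -0.38.

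**Figure D2:**
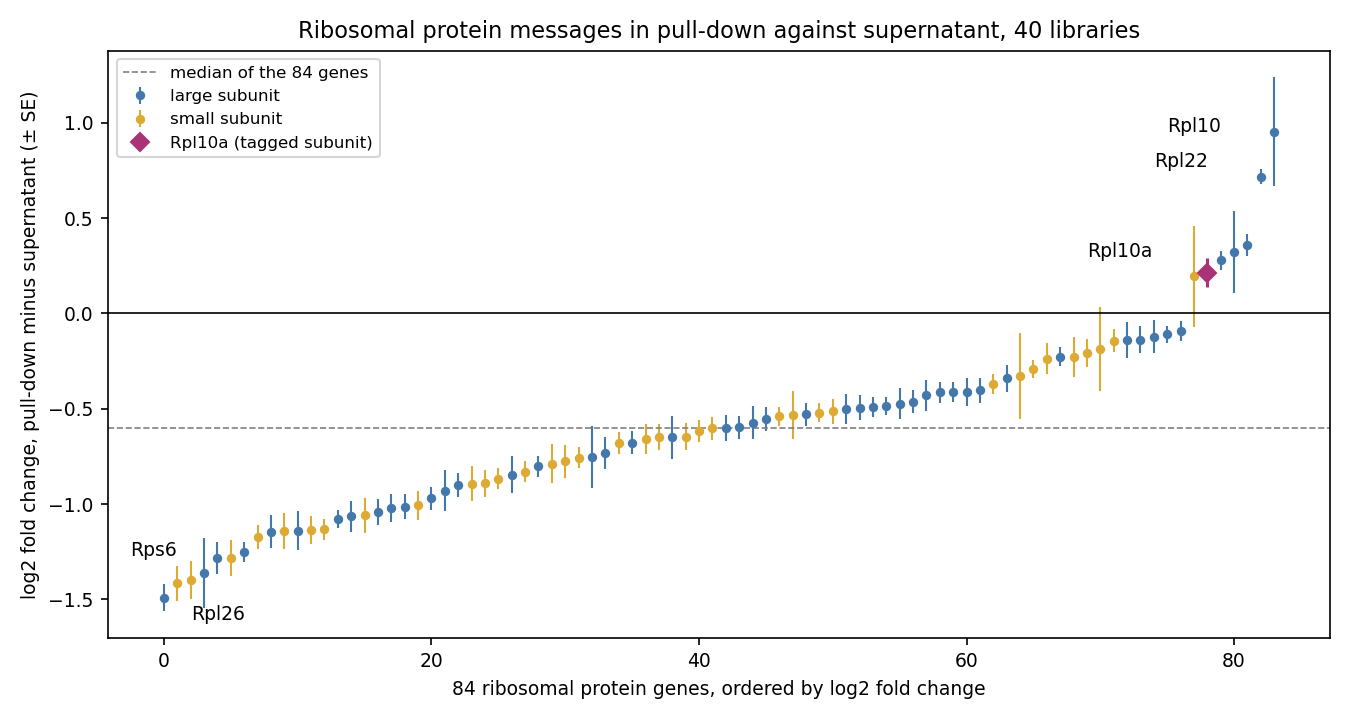
Each point is a ribosomal protein gene with its log2 fold change between pull-down and supernatant and its SE, over 40 libraries, ordered from lowest to highest. The dashed line is the median of the 84 genes (-0.60), Rpl26 is the lowest at -1.49 and Rpl10a lies sixth from the top at 0.21.

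Rpl26, a protein at the polypeptide exit tunnel that also binds the message of p53, was the lowest. Its level was 132 to 238 CPM in the 20 pull-downs (median 182) and 462 to 707 CPM in the 20 supernatants (median 520.3), where CPM are counts normalised to library size and scaled by TMM, edgeR's trimmed mean of M-values. The ranges lay far apart, and the log2 fold change was -1.49 ± 0.07 (SE, adjusted p = 2.01e-22, edgeR). Rps6, the small subunit protein that S6 kinases phosphorylate downstream of mTOR, had 156 to 374 CPM in the pull-downs (median 312) and 675 to 921 CPM in the supernatants (median 756). Its fold change was -1.41 ± 0.09 on the log2 scale, again with no overlap between the fractions. Next in order came Rps19, a gene mutated in Diamond-Blackfan anaemia, at -1.40 ± 0.10, Rpl36a at -1.36 ± 0.18 (-0.95 with the counts of its -ps symbols added), Rpl12 at -1.28 ± 0.08 and Rps24 at -1.28 ± 0.09. Rpl12 overlaps Lrsam1 on the opposite strand, and 21 of the 84 genes overlap a gene on the other strand, whose reads cannot be told apart where the counting did not use strand.

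Rpl22, an RNA-binding protein of the large subunit (chr4:152325742-152334071, GRCm38), was the gene whose pull-downs all lay above the supernatants. It had 208 to 250.5 CPM in the pull-downs (median 225) and 122 to 176 CPM in the supernatants (median 137), a log2 difference of 0.72 ± 0.04 (adjusted p = 1.04e-19, edgeR). By group, its pull-down medians were 231 CPM in Sham-Chow, 229 in Sham-HFD and 218 in GDX-HFD, and its supernatant medians were 132, 142 and 136 CPM. Its paralog Rpl22l1, outside the rule, went the other way at -1.51 ± 0.07 (adjusted p = 7.65e-24, edgeR), at 88.4 ± 6.83 CPM (SD, n = 20) in pull-downs against 251 ± 44.3 CPM (n = 20) in supernatants. The other tested paralogs, Rps27l at 1.52 ± 0.07 and Rpl7l1 at 0.82 ± 0.05, were higher in the pull-down. Rpl3l, Rpl10l and Rpl39l had too few counts to be tested.

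Besides Rpl22 and Rpl10a, the genes that were higher in the pull-down were Rpl7a at 0.36 ± 0.06, Rpl7 at 0.28 ± 0.05 and Rpl10 at 0.95 ± 0.28 on the log2 scale. With the total without mitochondrial genes and Gm42418 as the scale, Rpl7a (-0.011) and Rpl7 (-0.091) lay below 0. Rpl10 is on the X chromosome and encodes a protein that joins late in the assembly of the large subunit. Its level was 2.80 ± 1.36 CPM (SD, n = 20) in pull-downs against 1.47 ± 1.20 CPM (n = 20) in supernatants, while the symbol Rpl10-ps3, a pseudogene by name, had 251 ± 25.4 and 506 ± 103 CPM. When the counts of -ps symbols were added to the gene they are named after, an alternative chosen after seeing the data, Rpl10 was lower in the pull-down at -0.93 (adjusted p = 1.75e-17, edgeR). Its direction thus depended on whether these counts were included. Many counts also lay in the -ps symbols Rpl9-ps6, Rpl36a-ps1, Rps26-ps1 and Rps2-ps10, which leaves the levels of Rpl9, Rpl36a, Rps26 and Rps2 in doubt. With its -ps counts added Rpl36a stayed lower, at -0.95. Of the 84 genes, 53 have at least 1 -ps symbol.

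By role in the ribosome, the P stalk that recruits elongation factors and its base had 3 of 4 genes lower: Rpl12 at -1.28, Rplp1 at -1.08 ± 0.05 and Rplp0 at -0.46 ± 0.06, with Rplp2 at -0.14 ± 0.07 (adjusted p = 0.0642, edgeR). The partners of 5S ribosomal RNA, which bind Mdm2 when assembly fails, were both lower, Rpl11 at -0.85 ± 0.10 and Rpl5 at -0.34 ± 0.07. Of 8 genes at the exit tunnel, where the new chain leaves, 6 were lower, Rpl22 was higher and Rpl19 had -0.09 ± 0.05. The lower genes there included Rpl17 at -1.07 and Rpl35 at -1.04. All 4 genes at the message entry and decoding site were lower, from Rps2 at -0.78 to Rps9 at -0.23 ± 0.11. All 6 at the message exit were lower as well, from Rps26 at -1.13 to Rps14 at -0.21. The values of Rps2 and Rps26 are in doubt because of their -ps symbols, as given above. Rps27a, made as a fusion with ubiquitin, was lower at -0.79 ± 0.10. Of 4 X-linked genes, Rpl36a, Rpl39 (-0.57) and Rps4x (-0.37) were lower and Rpl10 was higher as counted. These counts stand against 43.7% lower and 43.1% higher of all genes tested. Most of the 84 genes were lower too, so the counts set no role apart from the rest.

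Large subunit genes had a median of -0.53 and small subunit genes of -0.66. The 30 genes with a small nucleolar RNA gene inside had a median of -0.69, and the 54 without had -0.57. Over 79 genes with an annotated protein length, from 25 to 419 residues, Spearman's rho between the fold change and protein length was 0.19. Over all 84 it was -0.18 with the mean count. All points share the same 40 libraries.

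Other messages of the translation machinery, from lists chosen with earlier results known, did not all go the same way. Their counts stand against 43.1% higher and 43.7% lower of all genes tested. Fau and Rack1, ribosome components outside the rule, were both lower at -0.34 ± 0.05 and -0.31 ± 0.07. Of 10 other messages with a terminal pyrimidine tract, 8 were lower and none higher (median -0.69), led by the small nucleolar RNA hosts Gas5 at -1.31 ± 0.09, Snhg8 at -0.96 and Snhg12 at -0.95. Of 13 elongation factors 5 were higher and 8 lower, from Eef1a2 at -3.48 ± 0.19, the form of neurons and muscle, to Eef2k, the kinase of elongation factor 2, at 2.14 ± 0.08. Of 39 initiation factors 19 were higher and 13 lower, led by Eif4a2 at -1.69, Eif2b5 at 1.33 and Eif1ax at 0.95. Of 44 genes of ribosome biogenesis 12 were higher and 22 lower, led by Wdr12 at -1.19, Sbds at 1.71 and Utp6 at 0.82. Of 35 tested genes of mTOR control 16 were higher and 9 lower, led by Akt2 at 2.25, Deptor at -1.28 and Sesn3 at 1.72.

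Rpl10a (ENSMUSG00000037805, chr17:28328471-28331033, plus strand, GRCm38) took a larger share of the ribosomal protein messages in the pull-down than in the supernatant, and ranked sixth of the 84 genes by fold change. It took 0.996% to 2.13% of ribosomal protein counts in the 20 pull-downs (median 1.22%) and 0.591% to 0.819% in the 20 supernatants (median 0.665%). The fractions did not overlap, from which it follows that the pull-down was higher in 20 of 20 sample numbers, and the ratio of the means was 1.86. Its log2 fold change lay 0.82 above the median of the 84 genes, and 0.76 to 0.84 above it in the 14 alternatives. Whether messages of the eGFP-L10a transgene were counted as Rpl10a was not tested and cannot be told apart in a table of counts per gene.

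The level of Rpl10a against all genes differed less. In the pull-downs it had 272, 319.9 and 341 CPM as lowest, median and highest in Sham-Chow, 252, 301 and 366 in Sham-HFD, and 189.6, 301 and 499 in GDX-HFD. In the supernatants the same 3 values were 208, 269 and 315 CPM in Sham-Chow, 224, 293 and 374 in Sham-HFD, and 218, 249 and 284 in GDX-HFD. Within each group the fractions overlapped, and all 6 group means, from 252 CPM to 313 CPM, lay within the spread of their neighbours in order. Over all groups Rpl10a was higher in the pull-down by 0.21 ± 0.08 (adjusted p = 0.0104, edgeR). This call depended on the scale: it was not made with DESeq2 size factors (0.15), total counts (0.13), the upper quartile (0.11), DESeq2 itself (0.15) or the second deposited table (0.11), and the direction turned to -0.16 (adjusted p = 0.0455) with the total without mitochondrial genes and Gm42418.

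By group, Rpl10a had 0.26 ± 0.13 in Sham-Chow (adjusted p = 0.0682), 0.07 ± 0.14 in Sham-HFD (adjusted p = 0.670) and 0.31 ± 0.13 in GDX-HFD (adjusted p = 0.0285, edgeR). The background was 76.0%, 75.8% and 76.9% of all genes called. The call in GDX-HFD rested on the GDX-HFD 10 pull-down, in which Rpl10a had 499 CPM while the next had 321: without that library it was 0.16 (adjusted p = 0.227, edgeR), and over all groups it was still called at 0.16 (adjusted p = 0.0322). With the sample number as a block the GDX-HFD value was 0.27 (adjusted p = 0.0781, edgeR), so the call was lost there too. Without the GDX-HFD 10 pull-down the Sham-Chow value, 0.27, passed (adjusted p = 0.0381). The difference of the fraction effect between groups did not pass, at -0.19 ± 0.19 for diet (adjusted p = 0.970) and 0.25 ± 0.19 for orchiectomy (adjusted p = 0.941).

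**Figure D3:**
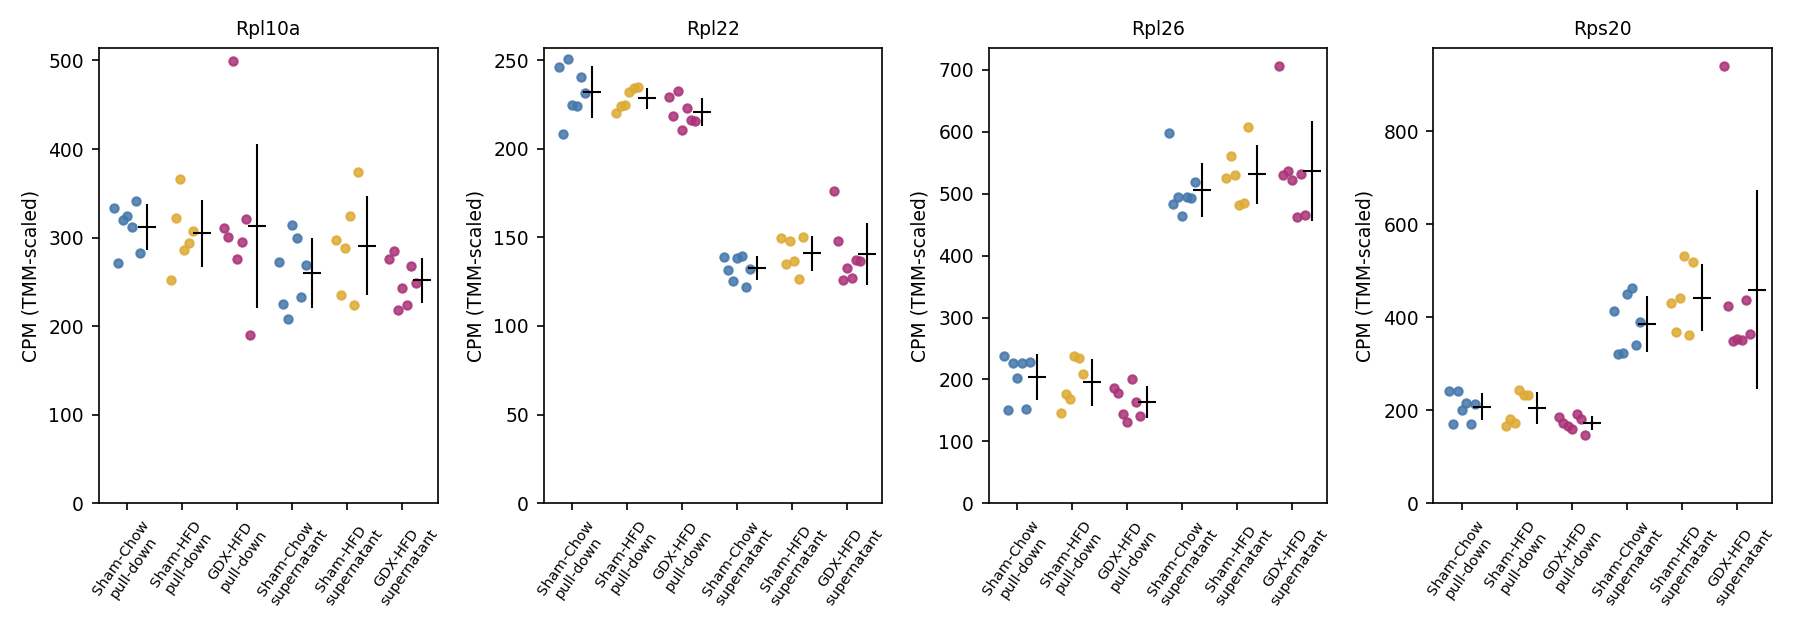
TMM-scaled CPM of Rpl10a, Rpl22, Rpl26 and Rps20 in each library (points) by group and fraction, with the mean and SD beside them; the axes start at 0. Rpl10a overlaps between the fractions, Rpl22 is higher in every pull-down, and the GDX-HFD 2 supernatant is far above its group for Rpl26 (707 CPM) and Rps20 (940.2 CPM).

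Most ribosomal protein genes had the same direction in the 3 groups. In Sham-Chow 63 were lower and 3 higher (median -0.50, against 38.7% lower and 37.3% higher of all genes), in Sham-HFD 64 and 3 (median -0.64, against 38.2% and 37.6%) and in GDX-HFD 68 and 5 (median -0.70, against 39.2% and 37.7%). In all 3 groups 61 genes were lower (34.1% of all genes tested were) and 2, Rpl22 and Rpl7a, were higher (32.7% of all genes). Across the 84 genes Pearson's r between the fold changes of any pair of groups was 0.86 to 0.91, a description over genes measured in libraries that share 1 scaling and 1 fit. The signs differed between groups in 6 genes (Rpl15, Rpl18, Rpl6l, Rps27rt, Rps3a2 and Rps3a3), 4 of them named as copies. Without the GDX-HFD 10 pull-down, 3 genes were higher in GDX-HFD.

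High-fat diet was compared with chow in sham mice to ask whether the ribosomal protein messages differed with diet. None of the 84 passed in either fraction (background 0.0% in the pull-down and 0.0% in the supernatant). None had an unadjusted p under 0.05 in either fraction, against 1.71% and 1.41% of all genes. In the pull-down, 69 of the 84 lay below 0 (52.8% of all genes did) with a median of -0.05. This direction depended on the libraries kept. Without the Sham-HFD 1 pull-down 31 of the 84 lay below 0 and the median was 0.02. Without all the Gm42418-rich pull-downs, Sham-HFD 1 among them, most of the 84 still lay below 0, as given further below. In the supernatant, 17 lay below 0 (background 50.3%) with a median of 0.08. The smallest p in the pull-down belonged to Rpl10 at 0.66 ± 0.38 and Rpl32 at -0.15 ± 0.09 (adjusted p = 1.000 for both, edgeR), followed by Rpl6 at -0.12 and Rps27 at -0.16 among the lower genes. Rpl10 had few counts, a mean of 23.5 per library, and its value fell below 0 with -ps counts added. In the supernatant it belonged to Rpl28 at 0.17 ± 0.10 (adjusted p = 0.904, edgeR), followed by Rpl36 at 0.16 and Rpl12 at 0.13. Rpl10a had -0.05 ± 0.14 in the pull-down and 0.15 ± 0.12 in the supernatant. With DESeq2 and limma voom the count of the 84 that passed was 0 as well.

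Orchiectomy was compared with sham on HFD. In the pull-down none of the 84 passed (background 0.0%), while 71 lay below 0 (47.6% of all genes did), with a median of -0.14 against 0.01 over all genes. Without the Sham-HFD 1 pull-down 75 lay below 0 and the median was -0.22. With an unadjusted p under 0.05 there were 3 lower genes and 1 higher (background 6.53% in either direction). Among the lower were Rpl23 at -0.27 ± 0.13 and Rps20 at -0.23 ± 0.11, and the higher was the copy Rps3a3 at 0.97 ± 0.45 (adjusted p = 0.741 for each, edgeR). Rps3a3 had few counts, 0.674 ± 0.315 CPM in Sham-HFD (SD, n = 6) and 1.32 ± 1.20 CPM in GDX-HFD (n = 7). Rps20, a protein of the small subunit head, had 165, 207 and 243 CPM as lowest, median and highest in Sham-HFD pull-downs and 147, 174 and 193 CPM in GDX-HFD, which overlap. Rpl10a had 0.06 ± 0.14, and -0.10 without the GDX-HFD 10 pull-down. In the supernatant none passed (background 0.0%). There 67 lay below 0 (background 46.2%), the median was -0.07, and 1 gene, Rpl28 at -0.23 ± 0.10, had an unadjusted p under 0.05 (background 3.0%). Rpl10a had -0.21 ± 0.12 (adjusted p = 0.945, edgeR). DESeq2 and limma voom passed 0 of the 84 in both fractions.

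Orchiectomised mice on HFD were also compared with sham mice on chow, which shares libraries with the former comparisons. In the pull-down none of the 84 passed (background 0.0142%), 76 lay below 0 (background 49.1%) and the median was -0.17. There were 12 lower genes with an unadjusted p under 0.05 and none higher, 12 of 84, against 11.1% of all genes in either direction. The smallest p values belonged to Rps20 at -0.27 ± 0.11 (adjusted p = 0.410), Rpl23 at -0.30 ± 0.12 (adjusted p = 0.413) and Rpl41 at -0.26 ± 0.11 (adjusted p = 0.419, edgeR). Rpl10a had 0.01 ± 0.14, and -0.14 without the GDX-HFD 10 pull-down. In the supernatant none passed (background 0.0%) and none had an unadjusted p under 0.05 (background 2.26%). There 40 lay below 0 (background 50.0%), the median was 0.003, and Rpl10a had -0.06 ± 0.12. Without the GDX-HFD 2 supernatant 72 lay below 0, with a median of -0.038. The difference of the effect between the fractions passed in none of the 84, for diet (background 0.0%, median -0.13) or orchiectomy (background 0.0064%, median -0.08, and -0.15 to 0.0084 over the alternatives). Below 0 lay 72 genes for diet (50.6% of all genes) and 62 for orchiectomy (53.7%), and the unadjusted p was under 0.05 in 0 (background 2.55%) and 2 (background 4.43%).

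**Figure D4:**
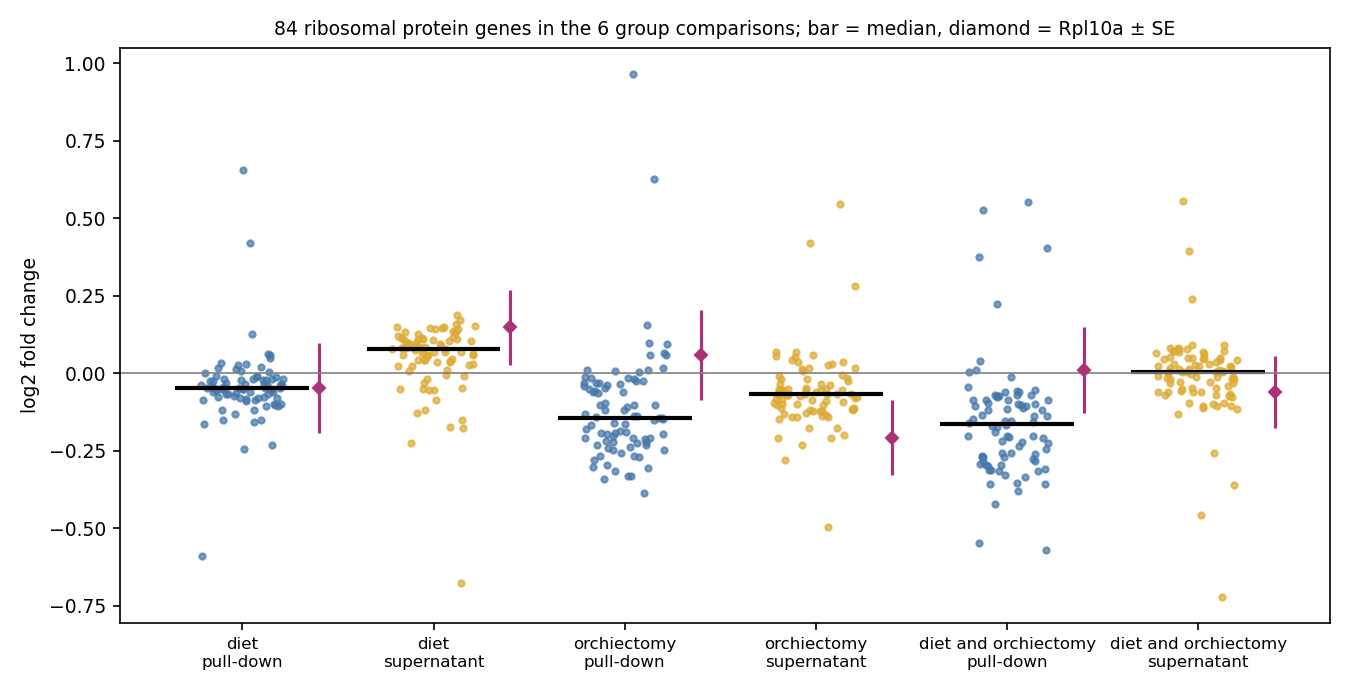
Log2 fold changes of the 84 ribosomal protein genes (points) in the 6 group comparisons, with their median as a bar and Rpl10a with its SE as a diamond. Medians lie between -0.17 and 0.08, and none of the 84 genes passed in any of the 6.

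In the pull-downs the summed level of the ribosomal protein genes was lower in the libraries rich in Gm42418. It was 18552 to 20961 CPM in the 4 pull-downs with more than 10% Gm42418 and 23335 to 30149 CPM in the other 16. The ranges did not overlap, and they did not with the denominator free of Gm42418 and mitochondrial genes either (2.12% to 2.31% against 2.33% to 3.20% of counts). Rpl10a as a share of ribosomal protein counts, 1.02% to 1.38%, lay within the range of the others, 0.996% to 2.13%. In the same 4 libraries the 8 neuron markers summed to 407 to 614 CPM (223 to 378 CPM in the other 16), the 5 endothelial markers to 573 to 1175 CPM (137 to 944), and mitochondrial messages to 0.856% to 1.63% (0.643% to 1.01%). None of the 8 neuron markers was at 0 in any pull-down, and the part of these libraries' makeup in the ribosomal protein level was not tested. Without the 4, the level was 23335 to 30149 CPM in Sham-Chow (6 libraries), 25638 to 28789 CPM in Sham-HFD (5) and 23426 to 25986 CPM in GDX-HFD (5). The median log2 fold changes in the pull-down were then -0.03 for diet with 56 of 84 genes below 0, -0.15 for orchiectomy with 71, and -0.14 for both with 76.

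**Figure D5:**
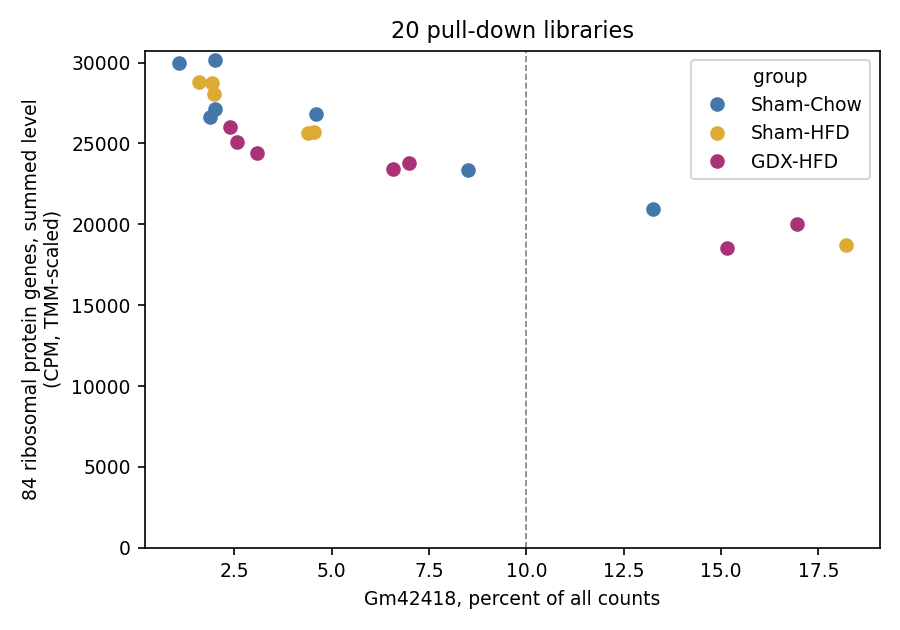
Summed TMM-scaled level of the 84 ribosomal protein genes (vertical axis from 0, CPM) against the share of counts in Gm42418 for each of the 20 pull-downs, coloured by group. The 4 libraries right of the dashed line at 10% lie between 18552 and 20961 CPM, below the other 16.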

How the data were processed

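The data are 3′ RNA-seq libraries (QuantSeq FWD, oligo-dT) of the pull-down and supernatant of 20 numbered samples. The members and the gene lists were chosen with earlier results of these data known. The deposited table of expected counts per gene symbol came from Trim Galore 0.6.4, Salmon 1.9.0 and GRCm38, per the submitters' processing notes; annotation, strand setting and gene-level step were not given in the sources used here. Of the non-zero values 12.7% were not whole. A second deposited table, named as TPM, held signal values that equal the deposited counts times 1 factor per library, not scaled by length, for 25089 of 26783 shared symbols (tolerance 0.01 counts). Of the 84 genes 76 were equal, and of the other 8 Rpl8 kept 35.7% of its count and Rpl10a 99.7%. The planned count test on whole reads recovered from the second table was not run, since too few of its values were whole, and limma on log2(value + 0.5) took its place.

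After rounding to whole numbers, counts were tested with edgeR 4.0.16 (R 4.3.3; quasi-likelihood, robust, TMM, filterByExpr) over all genes, with Benjamini-Hochberg adjustment and a threshold of 0.05. The fractions were compared in 1 fit of 40 libraries, with no block by sample number, and the groups in 1 fit per fraction. SEs were derived from the F statistic. Alternatives were other scalings, no low-count filter, DESeq2 1.42.0, limma 3.58.1 (voom), the second table, -ps counts added to their gene, libraries left out and a replicate block. Total counts per library ranged from 7714834 to 20792175, and counts without molecular identifiers cannot tell PCR copies from molecules. In a simulation 200 genes were changed 2-fold, up and down in equal number. Of those tested, 92.3% were recovered between the fractions (15196 genes) and 73.2% for diet in the pull-down (13910 genes). No other gene changed there, whereas 86.8% of genes passed between the fractions in the data. Changes under 2-fold were not simulated, so the rates do not cover changes of the size of the group medians. Named genes are Rpl10a, the 6 highest and 6 lowest between the fractions, those with the smallest p in each group comparison, and examples of each role and list. Results for some genes are not reported here.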

Additional observations from a re-analysis of the deposited data

Results flagged for a closer look

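Values of single libraries lay far from the rest of their group in 39 of 312 tests over the named genes and shares, where chance gives about 1 in 20. Genes measured in the same library vary together, so this count does not measure an excess over chance. Levels are TMM-scaled CPM, with the nearest library of the same group in parentheses.

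In the GDX-HFD 10 pull-down, Rpl10a was the highest of its group at 499 CPM (321), and so was its share of ribosomal protein counts at 2.13% (1.38%). The same library was highest for Rpl6 at 477 (436), Rps27rt at 161 (30.2), Rps2 at 149.7 (95.8) and Rpsa at 236 (186). Rps27rt is named as a copy of Rps27.

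The Sham-HFD 1 pull-down, 1 of the 4 with more than 10% Gm42418, was the lowest of its group in the ribosomal protein share at 1.71% (2.46%). Among small subunit genes it was lowest for Rps6 at 156 (294), Rpsa at 150.1 (210.2), Rps3a1 at 291 (448), Rps28 at 243 (326), Rps27a at 363 (739.9) and Rps4x at 193 (252). Among large subunit genes it was lowest for Rpl6l at 1.07 (1.74), Rpl7a at 242 (321), Rplp2 at 355 (505) and Rpl17 at 158 (217).

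The GDX-HFD 2 supernatant was the highest of its group for Rpl26 at 707 (536), Rpl22 at 176 (148), Rps20 at 940.2 (437), Rpl37rt at 450.3 (123), Rpl41 at 1393 (932), Rpl19 at 435 (299), Rplp0 at 221 (165), Rpl23a at 1014 (736), Rpl39 at 615 (466) and Rps26 at 234 (173). It was the lowest for Rps14 at 351 (683) and Rpl6 at 377 (577).

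Among the named genes, other libraries were far from their group in 1 to 3 each. The Sham-Chow 12 pull-down was highest for Rpl6 at 566 (476) and Rpl28 at 219.9 (176), and the Sham-HFD 13 pull-down for Rps27rt at 42.7 (28.0). The GDX-HFD 22 pull-down was lowest for Rpl31 at 238 (349.6). In the supernatants, GDX-HFD 14 was highest for Rpl10 at 3.88 (1.75), Sham-Chow 7 for Rpl26 at 598 (519) and Sham-HFD 16 for Rpl39 at 554 (451). Sham-HFD 16 was lowest for Rpl13 at 433 (516) and Rplp2 at 414 (562), and GDX-HFD 22 was lowest for Rpl13 at 521 (539).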

How the results depend on the processing

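The lower ribosomal protein genes between the fractions held under all 14 alternatives, and Rpl10a stayed 0.76 to 0.84 above their median, while its own call over all groups did not. With the total without mitochondrial genes and Gm42418, the genes called higher numbered 2 over all groups, 1 in Sham-Chow and 1 in GDX-HFD, the medians were -0.97, -0.89 (Sham-Chow), -1.04 (Sham-HFD) and -1.03 (GDX-HFD), Rpl10a had -0.16, -0.13, -0.34 and -0.0086, Rpl7 -0.091, Rpl6l -0.040 and Rpl7a -0.011, and the supernatant share was 5.34%. Rpl10a in Sham-HFD was -0.0098 with DESeq2, -0.0099 with its size factors in edgeR, -0.052 with total counts, -0.059 with the upper quartile and -0.028 with the second table. In GDX-HFD the genes called higher were 3 with DESeq2 size factors, 3 with total counts and 2 with the upper quartile. With -ps counts added, Rpl10 had -0.93 between the fractions, -0.034 for diet and -0.11 for both in the pull-down, and 0.12 for diet in the supernatant. With the denominator limited to Rpl10a and the 76 genes equal in both tables, the Rpl10a share in the supernatant was 0.752%.

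Counts of all genes called between groups varied. DESeq2 called 11 for orchiectomy and 12 for both in the pull-down, 3 and 1 in the supernatant, and 4 and 6 for the differences between fractions by diet and by orchiectomy. For orchiectomy in the pull-down 1 was called with total counts and 4 without the Gm42418-rich libraries. limma voom called 1 for both in the pull-down. The difference by orchiectomy had 0 with voom, with the second table, without the Gm42418-rich libraries and with the replicate block. Rpl10a for both in the pull-down had -0.039 with voom and -0.038 with the second table. None of the 84 genes was called between groups under any alternative run.

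Leaving out the GDX-HFD 10 pull-down, the GDX-HFD 2 supernatant or the Sham-HFD 1 pull-down (chosen after seeing the data, as were -ps counts and limma on the second table) gave 3, 4 and 5 genes called higher in GDX-HFD. Without the first, orchiectomy in the pull-down had 1 gene called, and Rpl10a had -0.041 for diet, -0.10 for orchiectomy and -0.14 for both. Without the last, orchiectomy in the pull-down had 5 genes called and its difference between the fractions 2, and Rpl10a had 0.0043 for diet, 0.0059 for orchiectomy and 0.010 for both. Without the GDX-HFD 2 library, in the supernatant, Rpl37rt had -0.036 and Rpl19 -0.033 for orchiectomy, and Rpl37rt -0.031 and Rps20 -0.040 for both. The causes of these shifts were not tested. The labels do not say that a shared sample number is 1 animal. Over 20 pairs of same-numbered libraries the deviations from the group means correlated at -0.069 to 0.15, with 5 pairs above 0.1. Set against all 20 supernatants, 6 pull-downs matched their own number best, more than random matching would give. Pairing by number is thus not excluded, and the main fits used no block. With the replicate block 71 genes were lower and 5 higher between the fractions, and Rpl10a in GDX-HFD had 0.27 (adjusted p = 0.0781, edgeR). Low counts limit Rpl10, Rpl6l, Rps3a2 and Rps3a3.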
